A study of Mus musculus with 9 samples.

Results

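The genes described here are the expressed zinc finger protein genes named Zfp and a number, 169 of the 24132 gene symbols measured in mouse embryonic stem cells (ESCs). They were chosen from 332 such symbols by their level. Zfp36, Zfp42 and Zfp281 were left aside, and of the other 329 symbols, 169 had a mean RPKM of at least 1 over 3 input libraries. RPKM is the number of reads on a gene scaled by its transcript length and by the mapped reads of the library. The input levels therefore chose the genes and are given as a description, without a test.

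The RNA came from 3 ESC lines of a 129/B6 F1 hybrid, all grown without feeders and with LIF and all fixed with formaldehyde. One line carried a lentivirus without tagged WDR5 (EV), the second a lentivirus for FLAG-HA-tagged wild type WDR5 (WT). The third carried one for FLAG-HA-tagged WDR5 F266A (phenylalanine changed to alanine). The F266A construct was also shortened at its N terminus, so it differed from the WT construct by more than this residue. The study states that the shortening affects neither function in cells nor complex formation. In RIPiT-seq, tagged complexes were purified through FLAG and then through HA, and the RNA that came with them was sequenced. Each line had 2 such IP libraries and 1 input library of its RNA, 9 libraries in all. The study's methods describe individually isolated clones, so a difference between lines cannot be told apart from a difference between clones, and p-values here measure only the spread between IP libraries. The library labelled F266A IP 1 held almost no RNA of Y-linked genes, unlike the other F266A libraries, so the zinc finger genes called between lines are also given without it. Estimated depths lay between 13400000 and 50400000 mapped reads, so that a gene at RPKM 1 with the median exon length of these genes, 3.84 kb, had between 51.5 and 193.5 reads.

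Zinc finger proteins of the C2H2 kind hold a zinc ion between a pair of cysteines and a pair of histidines, and proteins with many fingers in a row read longer stretches of DNA. Many of them also carry a KRAB domain, which recruits the co-repressor TRIM28 and, through it, enzymes that mark chromatin as silent. In ESCs such KRAB zinc finger proteins are known for holding retroelements silent and for protecting imprinted methylation, and other zinc finger proteins act in transcription, RNA handling and translation.

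Because fingers are copied from gene to gene, the sequence itself bears on how far each level can be read. The runs below are 84 coding bases of 1 finger and its linker in 5 highly expressed genes, taken from the NCBIM37 (mm9) genome and printed 5′ to 3′ on the coding strand. Capitals mark the codons of both zinc-binding cysteines and both histidines. In Zfp57 the run lies at chr17:37146624-37146707 on the plus strand, in Zfp534 at chr4:147049513-147049596 on the minus strand, in Zfp600 at chr4:146162921-146163004 on the plus strand, in Zfp97 at chr17:17281682-17281765 on the plus strand and in Zfp960 at chr17:17224467-17224550 on the plus strand.
Zfp57: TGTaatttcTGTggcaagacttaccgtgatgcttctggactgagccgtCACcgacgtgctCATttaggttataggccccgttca
Zfp534: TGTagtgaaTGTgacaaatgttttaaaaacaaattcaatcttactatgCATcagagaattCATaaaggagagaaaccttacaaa
Zfp600: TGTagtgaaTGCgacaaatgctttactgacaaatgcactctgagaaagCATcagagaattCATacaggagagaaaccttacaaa
Zfp97: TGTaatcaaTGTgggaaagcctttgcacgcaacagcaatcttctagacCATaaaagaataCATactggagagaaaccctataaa
Zfp960: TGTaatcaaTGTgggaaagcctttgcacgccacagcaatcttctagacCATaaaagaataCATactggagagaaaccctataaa

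The runs of Zfp97 and Zfp960 differed at 1 of 84 bases, A31C, counted from 1 at the first base and read from Zfp97 to Zfp960. Those of Zfp534 and Zfp600 differed at 12 bases, while the run of Zfp57 differed from the other 4 at 47 to 51 bases. The same held beyond 1 finger when the protein-coding transcripts of GENCODE M1 were cut into stretches of 50 bases, the length that a short read can cover. Of 167 genes with a transcript, 104 shared no such stretch with another gene and 19 shared at least 10% of them. Sharing of 50% or more was found in 7, namely Zfp781, of which every stretch was shared, Zfp960 (82.7%), Zfp600 (82.5%), Zfp97 (80.2%), Zfp534 (62.3%), Zfp932 (55.4%) and Zfp934 (53.4%). How reads that fit several genes were counted is not given in the sources used here, so the levels of these genes are uncertain. The RPKM of Zfp97 and Zfp960 lay close together in each of the 9 libraries, from 8.30 to 12.7 for Zfp97 and from 8.96 to 12.7 for Zfp960.

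Most of the 169 genes were expressed at a low level. The median of the mean input RPKM was 2.37, against 3.01 for all 8397 genes at 1 or more, with 70 genes between 1 and 2, 71 between 2 and 5, 20 between 5 and 10 and 8 at 10 or above. Summed over the genes the level was 621.9 RPKM, and 5 genes held 21.0% of it. The genes just inside the threshold were Zfp747 (1.06), Zfp605 (1.06) and Zfp612 (1.01), and those just outside were Zfp820 (0.999), Zfp52 (0.990) and Zfp867 (0.985).

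The 5 most abundant were of different kinds. Zfp57, which keeps methylation at imprinted regions, had an RPKM of 29.1 in the EV input, 24.9 in the WT input and 38.4 in the F266A input. In the IPs it reached 51.0 and 54.8 for EV, 47.7 and 51.6 for WT and 59.7 and 76.8 for F266A. Every IP of Zfp57 was above every input. Zfp534 and Zfp600, KRAB genes on chromosome 4, had mean input levels of 28.6 and 25.4, Zfp106, an RNA-binding protein, 27.2, and Zfp207, a protein of the mitotic spindle, 18.3. They were followed by Zfp936 (11.7), Zfp960 (10.6), Zfp7 (10.2), Zfp462 (9.98) and Zfp664 (9.92).

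**Figure D1:**
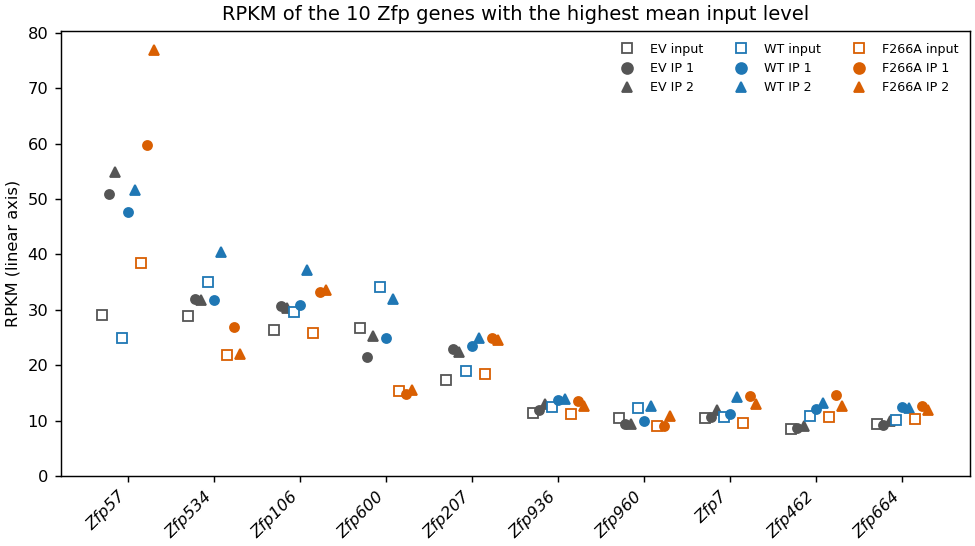
RPKM on a linear axis for the 10 genes with the highest mean input level, 1 point per library, with open squares for inputs, circles for IP 1 and triangles for IP 2, and colours for the 3 lines. Zfp57 in the IPs lies above its inputs, between 47.7 and 76.8, and Zfp600 is lowest in the F266A libraries, between 14.8 and 15.6.

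Fingers were counted in GENCODE M1 coding sequences for 165 of the 169 genes. Zfp433 and Zfp383 had no coding sequence under their name. Zfp664 and Zfp738 had one but were left out, as only names with a single gene record were kept. A finger was counted wherever the coded protein held a cysteine, 2 to 4 residues, a cysteine, 12 residues, a histidine, 3 to 5 residues and a histidine. By this count the genes held a median of 10 fingers, with a range from 0 to 36, and 88 held 10 or more. A letter pattern of the KRAB domain was present in 71, or 43.0%. The pattern is strict and misses Zfp568, a known KRAB protein, so that genes without it are not genes without the domain. Of the 154 Zfp symbols below the threshold that were counted in the same way, 77 held the pattern, and their median was also 10 fingers. The expressed genes with a position lay on 20 chromosomes, with the highest numbers on chromosome 7 (35) and chromosome 17 (19), and 44 of them stood in 8 clusters of at least 4 with gaps of at most 1 Mb.

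The next question was how the RNA of these genes compared between IP and input, which is how the study scores RNA that comes with WDR5. The score was the log2(RPKM + 1) of an IP less that of its own line's input, a scale that understates changes of low genes, and both scores of a line share its input. Zinc finger genes scored lower than expressed genes in general, in each of the 6 IPs and also in EV, which has no tagged protein. Their median score was 0.06 and 0.13 for EV, 0.05 and 0.14 for WT and 0.26 and 0.23 for F266A. The medians of all 8397 expressed genes were 0.29 and 0.28, 0.28 and 0.28, and 0.40 and 0.37. In all 6 IPs, 61 zinc finger genes, or 36.1%, were above 0, against 68.9% of expressed genes, and 7, or 4.14%, were below 0, against 0.643%.

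**Figure D2:**
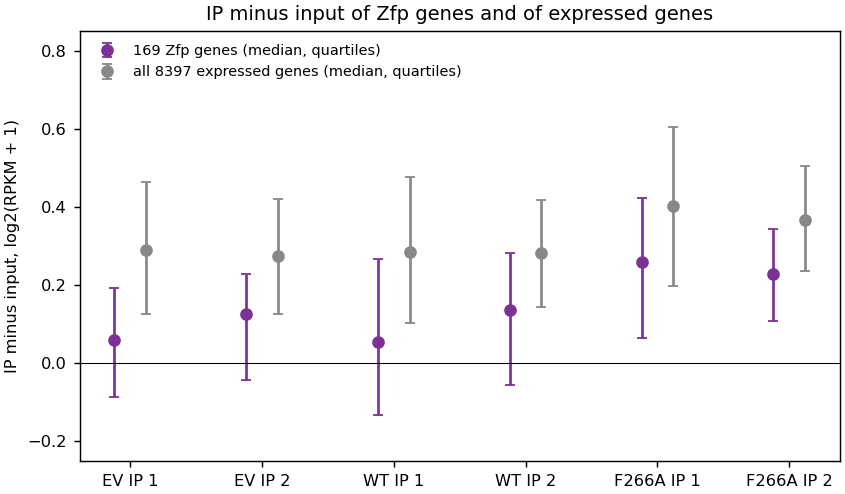
Median IP minus input on the log2(RPKM + 1) scale in each of the 6 IPs, with bars from the lower to the upper quartile over genes, for the 169 zinc finger genes and for all 8397 expressed genes. The zinc finger medians, from 0.05 to 0.26, lie below those of the expressed genes, from 0.28 to 0.40, in every IP.

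Over the 3 lines together the median was 0.13 for the zinc finger genes and 0.30 for the 9787 genes in the limma fit, and 136 of the 169, or 80.5%, lay below that 0.30. In this fit 46 zinc finger genes, or 27.2%, were called higher in IP than in input, where 56.4% of all genes were, and 2, Zfp931 and Zfp935, or 1.18%, were called lower, where 0.47% of all genes were. These counts are a description, because the inputs that chose the genes are part of this difference. They also depend on scale, since centring all libraries on the same median put 2 genes higher and 8 lower and turned the median of the zinc finger genes to -0.18. Relative to the median of the expressed genes the zinc finger genes lay lower, at -0.19 as deposited and -0.15 after quantile normalization. Median centring shifts all genes of a library alike, so it cannot change this gap.

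At the upper end stood Zfp691, Zfp57, Zfp688, Zfp39 and Zfp747, with mean scores of 0.98, 0.87, 0.79, 0.67 and 0.62. Zfp691 had an RPKM of 1.09, 0.91 and 1.52 in the EV, WT and F266A inputs. Its IPs were at 3.41 and 2.85 for EV, 3.48 and 2.95 for WT and 3.99 and 3.05 for F266A, all above all inputs. Zfp688 had inputs between 1.15 and 1.53 and IPs between 2.87 and 3.69. These levels are low. That IPs and inputs of both genes did not overlap follows in part from their choice by the highest scores.

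At the lower end stood Zfp931 (-0.43), Zfp935 (-0.34), Zfp951 (-0.29), Zfp442 (-0.28) and Zfp292 (-0.24). For EV, the RPKM of Zfp931 was 2.90 as input and 1.52 and 1.57 as IP; for WT it was 2.92 as input and 1.64 and 2.13 as IP, and for F266A 1.61 as input and 1.35 and 1.08 as IP. Each IP was below its line's input. Zfp931 shares 49.4% of its 50-base stretches with other genes. Zfp292, a large gene at 8.73, 10.3 and 7.70 in the inputs, shares none, and its IPs lay between 6.20 and 8.55. The 7 genes below 0 in all 6 IPs were Zfp292, Zfp931, Zfp951, Zfp935, Zfp942, Zfp873 and Zfp937.

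Among the genes the score moved with the number of fingers, which the choice of the genes did not use. Genes without a finger by the count used had a median IP minus input of 0.42 (n = 6), those with 1 to 4 fingers 0.25 (n = 28), those with 5 to 9 fingers 0.23 (n = 43), those with 10 to 14 fingers 0.08 (n = 52) and those with 15 or more 0.07 (n = 36). The same order was seen in expressed genes outside the set, at 0.32 with 0 fingers (n = 7078), 0.23 (n = 118), 0.15 (n = 43), 0.02 (n = 41) and -0.12 with 15 or more (n = 15). Across the 165 genes Spearman's rho with the number of fingers was -0.41, given as a description, since the points share libraries and many share sequence.

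**Figure D3:**
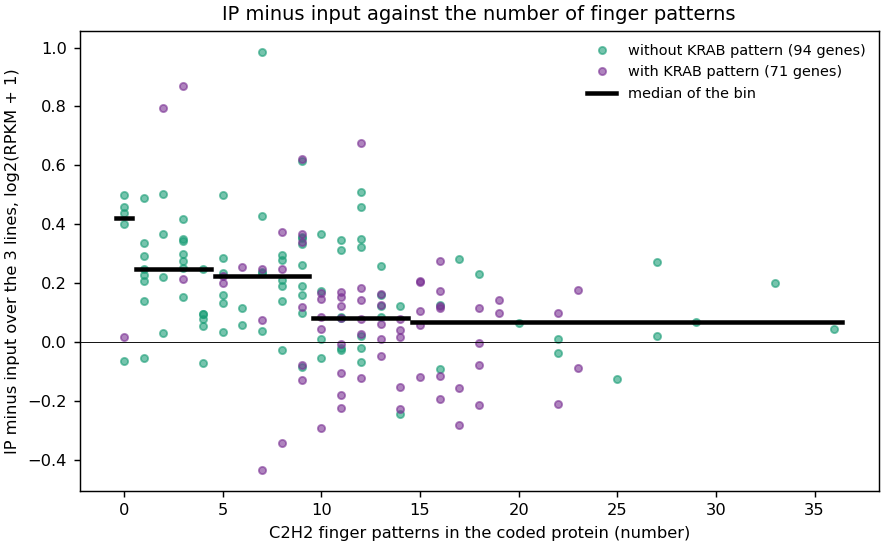
IP minus input over the 3 lines on the log2(RPKM + 1) scale against the number of C2H2 finger patterns, 1 point per gene (n = 165), coloured by the KRAB pattern, with a black line for the median of each bin (0, 1 to 4, 5 to 9, 10 to 14, 15 or more). The medians fall from 0.42 to 0.07, with wide overlap between single genes.

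The base composition of the transcript moved with the same scores. Across the same 165 genes Spearman's rho of IP minus input with GC was 0.47, and that of the number of fingers with GC was -0.33. Zinc finger genes with under 40% GC had a median of 0.01 (n = 34), against 0.27 in other expressed genes of that GC, and those with 55% or more had 0.29 (n = 24), against 0.32. Split at 10 fingers, genes under 45% GC had medians of 0.16 with fewer (n = 22) and 0.08 with 10 or more (n = 55), and genes at 45% GC or more had 0.25 (n = 55) and 0.08 (n = 33). The KRAB pattern gave a similar picture, with 0.08 in the 71 genes that held it and 0.20 in the 94 that did not, and the split by fingers was present in both, at 0.23 and 0.07 with the pattern and 0.24 and 0.08 without. Leaving out the genes with at least 10% shared stretches gave 0.24 (n = 74) and 0.08 (n = 73). Expressed genes outside the set were split by fingers and GC as well. With 10 or more fingers their median was -0.12 under 45% GC (n = 42) and 0.22 at 45% or more (n = 14). With fewer fingers it was 0.31 (n = 1509) and 0.32 (n = 5730).

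The finger split was seen in single IPs too. For EV, genes with fewer than 10 fingers had medians of 0.13 and 0.18 and those with 10 or more 0.02 and 0.08. For WT the values were 0.21 and 0.21 against -0.04 and 0.04, and for F266A 0.37 and 0.29 against 0.19 and 0.16. The difference was thus also found in the line without tagged WDR5.

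The comparison that the design implies for WDR5 is that of the score between lines. No zinc finger gene passed an adjusted p under 0.05 (limma with Benjamini-Hochberg adjustment over 9787 genes) for WT minus F266A, WT minus EV or F266A minus EV, and percent called was 0 among all genes as well. At an unadjusted p under 0.05 there were 4, 0 and 2 zinc finger genes and 259, 173 and 243 genes in all. The nearest were Zfp345, Zfp655 and Zfp945 for WT minus F266A, all lower in WT, with adjusted p = 0.9998 each. Zfp655 had scores of -0.35 and -0.14 in WT, 0.72 and 0.32 in F266A and 0.04 and 0.09 in EV. Its lines did not overlap, but it was picked for its small p, and a difference of -0.76 carried a standard error of 0.26. For WT minus EV the nearest were Zfp623, Zfp51 and Zfp770, and for F266A minus EV Zfp146, Zfp41 and Zfp62. The median over the genes was -0.16 for WT minus F266A, beside -0.09 for all genes tested, and 0.16 for F266A minus EV, beside 0.10.

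The study calls an RNA enriched in WT when the lower WT score is above 0 and above all 4 scores of the other lines. This rule was applied here to log2(RPKM + 1) of RefSeq symbols, fewer transcripts than the study used, so the study's count is not reproduced. Only Zfp423, Zfp369 and Zfp865 met it, 3 of 169 or 1.78%, where 4.79% of all symbols and 5.28% of expressed genes did. Their margins over the highest other score were 0.03, 0.01 and 0.02, and for Zfp423 the gap between its own WT scores, 0.38, was far larger. Put in the place of WT, EV gave 5 genes, namely Zfp51, Zfp688, Zfp109, Zfp429 and Zfp37. They were 2.96%, beside 3.96% of all symbols and 4.18% of expressed genes. F266A gave 59 genes, or 34.9% beside 13.6% of all symbols and 24.6% of expressed genes. That number rests on the scale, for it was 3 after every library was centred on the same median. It was 85 without F266A IP 1 and 92 without F266A IP 2. With the mean of the 3 inputs in place of each line's own it was 28.

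Without the inputs, the replicated IPs could be compared directly, and here single genes differed between lines. WT minus F266A called 2 zinc finger genes, 1.18%, where 1.16% of all genes were called, and F266A minus EV called 5, or 2.96%, where 4.55% were called. WT minus EV called none of the 169 and 0 of all genes, with 13 and 557 at an unadjusted p under 0.05; Zfp462, Zfp365 and Zfp433 were the nearest. The shares are thus near or below those of all genes. In RNA from whole cultures, fewer cells that express a gene and less RNA per cell cannot be told apart. The called genes went both ways, with Zfp600, Zfp951, Zfp819 and Zfp459, all with the KRAB pattern, lower in F266A, and Zfp423, Zfp516 and Zfp462, all without it, higher. Over all the genes the pattern did not divide them in this way, as the median F266A minus EV in the IPs was 0.07 with it (n = 71) and 0.10 without (n = 94). Of 19 genes with the pattern at an unadjusted p under 0.05 (limma), 8 were lower in F266A, and of 15 without it 3 were. In this comparison 20.4% of all genes were at that p.

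Zfp600 (chromosome 4, 146124225 to 146166156) had an RPKM of 24.99 and 31.9 in the IPs of WT, 21.5 and 25.3 in those of EV and 14.8 and 15.6 in those of F266A. WT was above F266A by 0.85 with a standard error of 0.15 on the log2(RPKM + 1) scale (limma, adjusted p = 0.0473). The inputs, which this test did not use, showed 34.2 in WT, 26.7 in EV and 15.4 in F266A, the same order. As 82.5% of its 50-base stretches are shared, most with Gm13138, its level is uncertain. Without F266A IP 1, WT was above F266A by 0.82 and the call was lost (limma, adjusted p = 0.0854).

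Zfp951 (chromosome 5, 105242366 to 105246371), a KRAB gene with 0.43% shared stretches, was at 2.71 and 2.73 in the IPs of WT, 1.72 and 1.73 in those of EV and 0.63 and 1.26 in those of F266A. WT exceeded F266A by 0.95 with a standard error of 0.16 (limma, adjusted p = 0.0397). Without F266A IP 1, the lowest of the 6, it exceeded F266A by 0.72 (limma, adjusted p = 0.0410). The inputs were 3.74 in WT, 2.34 in EV and 1.27 in F266A.

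Zfp819 (chromosome 7, 50862539 to 50873655) codes for a KRAB protein that acts on retroelements in pluripotent cells. Its IPs were at 5.50 and 5.18 in EV, 4.93 and 5.55 in WT and 3.12 and 3.11 in F266A, and its inputs at 4.23, 3.93 and 2.11. F266A differed from EV by -0.62 with a standard error of 0.11 (limma, adjusted p = 0.0290). The WT minus F266A difference of 0.60 had an adjusted p of 0.0505 in the same limma fit. Zfp459 (chromosome 13, 67506658 to 67514893), a further KRAB gene, was at 3.77 and 3.87 in the IPs of EV, 3.08 and 4.44 in those of WT and 2.14 and 1.92 in those of F266A. F266A differed from EV by -0.67 with a standard error of 0.15 (limma, adjusted p = 0.0460), and its F266A input, 1.41, was also below those of EV, 3.44, and WT, 3.14.

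Zfp423 (chromosome 8, 90185709 to 90483494), a partner of EBF transcription factors in neural and fat precursors, went the other way. Its IPs were at 3.69 and 4.04 in EV, 5.18 and 3.74 in WT and 6.34 and 8.22 in F266A, with inputs at 3.35, 2.77 and 6.51. F266A was above EV by 0.76 with a standard error of 0.16 (limma, adjusted p = 0.0441). Zfp516 (chromosome 18), a regulator of brown fat genes, was at 1.03 and 1.27 in the IPs of EV, 1.14 and 1.30 in those of WT and 2.18 and 2.64 in those of F266A. It was higher in F266A by 0.67 with a standard error of 0.13 (limma, adjusted p = 0.0368), and its inputs were 1.15, 1.24 and 2.30. In both genes no F266A library overlapped with an EV or WT library.

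Zfp462 (chromosome 4, 54957920 to 55096435), a large protein with 33 finger patterns that is needed for normal development, was at 8.70 and 9.12 in the IPs of EV, 12.1 and 13.3 in those of WT and 14.7 and 12.7 in those of F266A. F266A was above EV by 0.57 with a standard error of 0.12 (limma, adjusted p = 0.0456). WT and F266A IPs overlapped, and the WT minus EV difference of 0.46 was not called (limma, adjusted p = 0.662). The inputs were 8.47 in EV, 10.8 in WT and 10.7 in F266A.

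**Figure D4:**
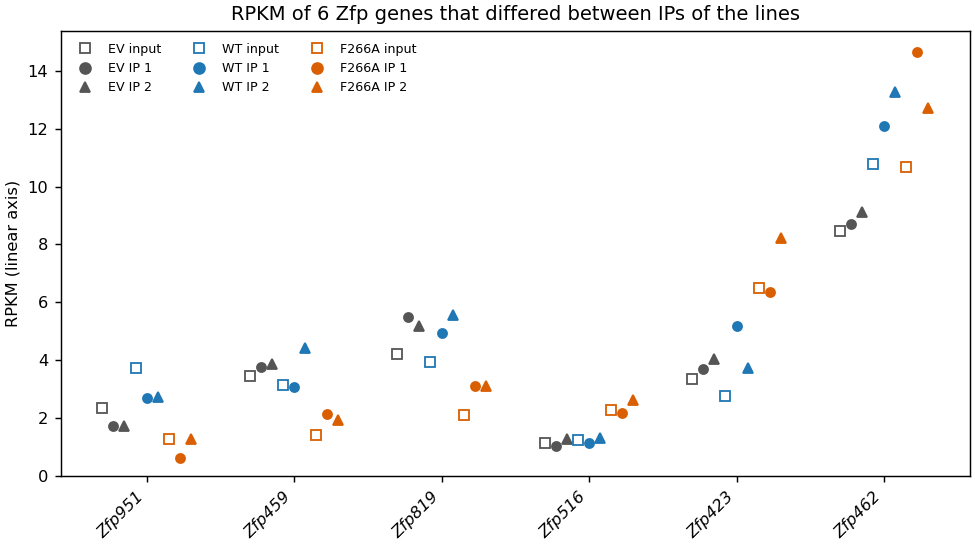
RPKM on a linear axis in all 9 libraries for 6 of the 7 genes called between IPs of the lines, with open squares for inputs, circles for IP 1 and triangles for IP 2. Zfp951, Zfp459 and Zfp819 are lowest in the F266A libraries, Zfp516 and Zfp423 are highest there, and Zfp462 is lowest in the EV libraries; Zfp600 is left out for its higher level.

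These calls stand close to the threshold. Each difference kept its sign under 12 alternatives, but some, such as leaving out an IP of a line not compared, cannot change a difference. Each call was lost in some of the 12, in 4 for Zfp819, 6 each for Zfp951 and Zfp516, 7 for Zfp459, 8 each for Zfp423 and Zfp462 and 9 for Zfp600. With a pseudocount of 0.1 the difference was 1.498 for Zfp951 and 1.01 for Zfp516 (limma, adjusted p = 0.0445 and 0.0347), above the reported 0.95 and 0.67. Without the library labelled F266A IP 1, Zfp819, Zfp516 and Zfp423 differed from EV by -0.63, 0.76 and 0.92 (limma, adjusted p = 0.0437, 0.0341 and 0.0338), while Zfp462, at 0.47, and Zfp459, at -0.72, were not called.

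That library stood apart in another way. The summed RPKM of the Y-linked genes Ddx3y, Uty and Eif2s3y was 4.43 in the F266A input and 7.21 in F266A IP 2 but 0.038 in F266A IP 1; it was 7.41 to 9.48 in the EV libraries and 0.182 to 0.324 in the WT libraries. Both F266A IPs carry the same label, but they may not be replicates of 1 clone, and the standard errors and p-values for F266A take them as such. The ESC markers were present in all 9 libraries, with Pou5f1 at 36.3 to 81.1. However, Pou5f1 was itself called lower in the IPs of F266A than in those of EV. The difference was -0.83 with a standard error of 0.18 (limma, adjusted p = 0.0434). It was the 1 call among the 10 markers, where 4.55% of all genes were called. Pou5f1 was at 36.3 in F266A IP 1 and 52.0 in F266A IP 2. Its inputs were 55.5 in EV, 50.2 in WT and 39.8 in F266A. The median F266A minus EV of the 10 markers was -0.29. Of the fibroblast markers, 5 of 7 stayed under 0.02 RPKM throughout. The 10 primitive endoderm markers summed to 9.95, 4.24 and 13.9 in F266A input, IP 1 and IP 2 and to between 0.928 and 1.54 in the other 6 libraries. In F266A IP 1 the largest part was Lrp2, at 2.13, which lay between 0.67 and 1.03 in the EV and WT libraries. Cubn and Gata6 were at 0.17 and 0.06 in F266A IP 1 and at 2.24 and 0.94 in F266A IP 2. Dab2 was at 0.92 and 5.43 in these IPs, against at most 0.26 in the EV and WT libraries. Of the 10 markers, 8 were highest in an F266A library, Gata4 among them at 1.90, 0.695 and 2.69, while Afp and Ttr were at 0 in all 9. Only 4 of the 10 reached the limma filter, and 0 were called between IPs of the lines. Of 4 neural markers, 3 were highest in an F266A library, and of the 10 ESC markers 1 was. The share of all genes highest in an F266A library was not counted. The part of these differences between libraries in the zinc finger results was not tested.

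The inputs are separate libraries, and differences between IPs could be set beside differences between inputs. For F266A minus EV, Pearson's r between the input difference and the IP difference was 0.78 over the 169 genes, rho 0.69, and for all 8397 expressed genes r was 0.76. The signs were less alike. They matched in 102 of the 169 genes, or 60.4%, beside 72.6% of all expressed genes, and the median difference was -0.11 in the inputs and 0.09 in the IPs. With F266A IP 2 alone r was 0.85 and with F266A IP 1 alone 0.53. For WT minus F266A r was 0.75 and for WT minus EV 0.49. Genes share libraries and are no replicates, so these values describe the libraries. Zfp365, a protein of DNA damage responses, was at 1.41 in the EV input and 4.26 in the F266A input, and its IP difference of 0.77 was not called (limma, adjusted p = 0.0932).

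**Figure D5:**
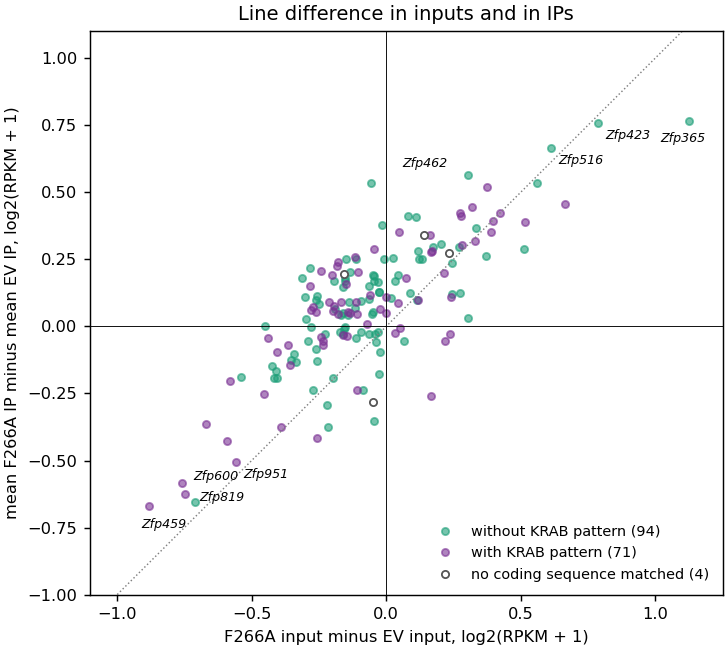
F266A minus EV on the log2(RPKM + 1) scale, inputs on the horizontal axis and means of the IPs on the vertical axis, 1 point per gene (n = 169), coloured by the KRAB pattern; the dotted line marks equal differences. The points follow the line upward (r = 0.78), with Zfp459 at the lower end and Zfp365 and Zfp423 at the upper end.

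In the inputs themselves, where no line has a replicate, F266A differed most. Set against the mean of the EV and WT inputs, the F266A input was lowest for Zfp600 (-0.93), Zfp459 (-0.83), Zfp951 (-0.81), Zfp819 (-0.71) and Zfp60 (-0.69), each with the KRAB pattern. It was highest for Zfp423 (0.89), Zfp365 (0.78), Zfp1 (0.60), Zfp516 (0.59) and Zfp330 (0.53), of which Zfp1 had the pattern. The median over the genes was -0.12, as it was over all expressed genes. The medians with the pattern, -0.18 (n = 71), and without, -0.11 (n = 94), were close beside a range from -0.93 to 0.89. WT minus EV in the inputs was smaller, with a median of 0.07 beside 0.0004 and a range from -0.32 to 0.68.

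By role, the differences between lines were few. Among the KRAB genes known for retroelements and imprints (Zfp57, Zfp445, Zfp568, Zfp809, Zfp819, Zfp932 and Zfp708, the last at 0.81 to 1.08 in the inputs and below the threshold), 1 of 7 was called between IPs, Zfp819 for F266A minus EV, where 4.55% of all genes were called. Zfp57 is the most abundant of them, and F266A minus EV was 0.35 in its IPs (limma, adjusted p = 0.244). Zfp809, which silences proviruses, and Zfp445, a partner of Zfp57 in imprinting, had mean input levels of 3.87 and 3.85 and IP minus input values of 0.07 and 0.03. Of 4 genes of pluripotent cells, 1 was called, Zfp462, in the same comparison and beside the same 4.55%. Zfp207 had an IP minus input of 0.37, Zfp296 of 0.23 and Zfp143, an activator found at promoters, of 0.24.

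Of 8 lineage regulators, Zfp423 and Zfp516 were expressed and both called higher in F266A than in EV, where 4.55% of all genes were called in either direction. Both are among the called genes already described, and 2 genes say little of the list. Zfp488, Zfp503, Zfp521, Zfp536 and Zfp703, which act in neural and other lineages, stayed at or below 0.64 RPKM in every library, and no value is given for Zfp238. Of all genes, 15.5% were at an unadjusted p under 0.05 (limma) for WT minus F266A, 5.69% for WT minus EV and 20.4% for F266A minus EV. Called in the same order were 1.16%, 0% and 4.55%. None of the 8 measured RNA and translation genes was called between IPs of the lines by limma, with 0 at an unadjusted p under 0.05 in each comparison. Their median IP minus input was 0.25, with Zfp598, a ubiquitin ligase at collided ribosomes, at 0.49, Zfp259 at 0.50, Zfp622, a factor of the large ribosomal subunit, at 0.35, and Zfp346, which binds double-stranded RNA, at 0.08. None of the 12 measured chromatin and transcription cofactors was called either. At an unadjusted p under 0.05 (limma) there were 2 for F266A minus EV, beside the 20.4% of all genes, and 0 in both other comparisons. Their median IP minus input was 0.21. Zfp687 and Zfp592 stood at 0.33 and 0.28, Zfp644, a partner of a histone H3 lysine 9 methyltransferase, at 0.04, and Zfp335, found in H3 lysine 4 methyltransferase complexes, at 0.08.

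The proteins that act with KRAB domains were measured as well. All 11 of the co-repressor list were expressed, at mean input RPKM from 3.22 for Smarcad1 to 47.3 for Trim28. Their median IP minus input was 0.43, beside 0.30 for all genes and 0.13 for the zinc finger genes. In other expressed genes the median rose with level, from 0.24 at 1 to 2 RPKM to 0.44 at 10 or more. The list was not compared with genes of its own level. Trim28 scored 0.60 and 0.53 in EV, 0.67 and 0.54 in WT and 0.94 and 0.56 in F266A. Setdb1, the methyltransferase that TRIM28 brings to chromatin, had a mean input RPKM of 5.27 and a difference of 0.32. In the IPs 2 of the 11, Cbx3, a heterochromatin protein, and Smarcad1, a chromatin remodeller, were called lower in WT than in F266A. The differences were -0.86 and -0.81 (limma, adjusted p = 0.042 for each), where 1.16% of all genes were called. Smarcad1 was higher in F266A than in EV by 0.70 (limma, adjusted p = 0.037), where 4.55% were called. The inputs of Cbx3 were 14.1 in EV, 6.78 in WT and 12.4 in F266A, and those of Smarcad1 2.97, 2.74 and 3.95. Less the inputs, WT minus F266A was -0.07 for Cbx3 and -0.41 for Smarcad1 (limma, adjusted p = 0.9998 for each). Trim28 was not called, with -0.47 for F266A minus EV (limma, adjusted p = 0.137).

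The 3 genes left out by name behaved differently from each other. Zfp42, the ESC marker Rex1, had a mean input RPKM of 11.1 and scores from 0.42 to 0.60, and Zfp36, which destabilises messenger RNAs, one of 10.1 and scores from 0.08 to 0.65. Zfp281, a regulator of pluripotent states, had one of 5.02 and scores from -0.22 to 0.46. None of them was called between IPs of the lines by limma. At an unadjusted p under 0.05 there was 1 for WT minus EV, beside 5.69% of all genes. For F266A minus EV there was 1, beside 20.4%.

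The clusters held genes of differing scores. Of the 8, that on chromosome 17 from 21145905 to 23736454 held 9 genes, 8 of them with the KRAB pattern, and had the lowest median score, -0.08, with single genes from -0.22 to 0.21. That on chromosome 7 from 134376575 to 135029510, with Zfp553, Zfp747, Zfp688 and Zfp646, had the highest, 0.47, with a range from 0.02 to 0.79. Zfp459 lay in a cluster of 5 on chromosome 13 whose median F266A minus EV in the IPs was -0.24, and the 4 genes of the cluster on chromosome 8 had a median of 0.35.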

How the data were processed

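The authors deposited RPKM per RefSeq gene symbol, which they calculated with their own script from reads mapped with TopHat 1.1.3 to mm9. RNA had been amplified with a NuGEN Ovation v2 kit before sequencing, and read counts were not used here. All 9 value columns matched a label, and 0 others were left aside. No 2 libraries held exactly the same RPKM above 0 for a gene, so none was taken as a repeat of another.

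The genes and lists were chosen with earlier results of these data known. The genes named are the extremes of level, of score and of the F266A input difference, those called between lines or nearest to a call, and the members of the role lists.

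Depth was estimated from the RPKM of 1 read on genes of known exon length, and covers counting error only. Values were taken as log2(RPKM + 1). limma 3.58.1 in R 4.3.3 (eBayes with trend) was fitted to the 9787 genes that reached an RPKM of 1 in 2 or more libraries. Each line's input and IPs had their own coefficient, with Benjamini-Hochberg adjustment and a threshold of 0.05. The spread comes from the 3 pairs of IPs, since inputs have no replicate. The fit was tested on simulated data. Sequences, fingers and 50-base stretches came from GENCODE M1 on NCBIM37 (Python 3.11.15, Biopython 1.88).

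Alternatives were a pseudocount of 0.1, no filter, quantile normalization, median centring, eBayes without trend, the replicate number as a block, leaving out each IP, other thresholds for the genes, their choice by the IPs and a common input. Leaving out genes with shared stretches, and the medians over genes, were added after seeing the data. No count test was run.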

Additional observations from a re-analysis of the deposited data

How the results depend on the processing

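Under every alternative run, 0 zinc finger genes were called between lines in the input-corrected scores and for WT minus EV in the IPs. The WT minus F266A count in the IPs, 2 as reported, was 0 without a filter and with median centring, 1 with quantile normalization and 1 without the genes that share stretches, and lay between 0 and 1 when 1 IP was left out. The F266A minus EV count, 5 as reported, was 0 without a filter and 2 with quantile normalization, and lay between 0 (without either EV IP) and 7 (without F266A IP 1) when 1 IP was left out. The count between IP and input, 48 as reported, was 26 without a filter, 15 with quantile normalization and 10 with median centring, and lay between 29 and 57 when 1 IP was left out. The median IP minus input over the genes turned from 0.13 to -0.16 with quantile normalization and to -0.18 with median centring, by the construction of these settings. The enrichment rule of the study, met by 3 genes in WT, was met by 6 with a pseudocount of 0.1 and by 9 with the mean of the 3 inputs, and by between 4 and 21 when 1 IP was left out. The difference between genes with 10 or more fingers and those with fewer, -0.16 as reported, lay between -0.22 and -0.14 over 16 alternatives. Of these, no filter, median centring, eBayes without trend and the replicate block cannot change it. Where an IP was left out, the lone IP of its line was assumed to vary like those of the other lines. The causes of the other changes were not tested.

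The IPs of the lines share replicate numbers, and deviations of the same number correlated at 0.26 between WT and F266A, 0.11 between WT and EV and 0.01 between F266A and EV, so the numbers were not taken as pairs. With the replicate number as a block, F266A minus EV called 8 genes, 4 in each direction, WT minus F266A called 2 and the count between IP and input was 51. With 2 IPs per line and no second input, small differences are beyond these libraries. For WT minus F266A the median standard error over the genes was 0.22 in the input-corrected scores and 0.13 in the IPs alone. Moderate differences in the input-corrected scores can thus be missed too.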
